A study of Mus musculus with 6 samples.

Results

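The interferon genes examined here were 39 mouse genes taken from a fixed list of interferon-stimulated effectors, guanylate-binding and immunity-related GTPases, antigen presentation genes, STAT and IRF factors and the interferon receptor chains. A gene was measured where the array held a probe set naming that gene alone, and the probe set with the highest mean over the 6 arrays was used where there were several. This gave 38 of the 39 genes, out of 30702 genes with such a probe set. Ifi44 was not analysed here. The 38 genes comprised 20 type I targets, 11 type II targets, 3 signal transducers and 4 receptor chains.

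Interferons are secreted antiviral proteins. Type I interferons bind the Ifnar1 and Ifnar2 receptor chains and activate a complex of STAT proteins with Irf9, which binds the interferon-stimulated response element in target promoters. Interferon gamma, the type II interferon, binds the Ifngr1 and Ifngr2 chains and activates a STAT dimer that binds the gamma-activated site, and it induces Irf1, guanylate-binding proteins, immunity-related GTPases and the machinery of antigen presentation. Many target genes respond to both kinds of interferon, so the division into type I and type II targets is one of emphasis. Cultured podocytes are known to respond to both kinds.

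The cells were labelled as mouse podocytes, the glomerular epithelial cells whose foot processes cover the filtration barrier. Podocyte and tubular markers are given below, and cell identity was not tested further. A Wildtype line and an NCK1/2 knockout line, lacking the adaptor proteins that couple phosphorylated receptors such as nephrin to actin, were compared at 10 days of differentiation on type I collagen, with 3 independent replicates per line, 1 array for each. The sources used here do not give the strain, sex or age of the donor animals, or how the lines were made conditionally immortal. Such lines are often grown with interferon gamma before differentiation, and whether these were is likewise not given. Because each genotype was 1 line, genotype and line cannot be told apart, and p-values measure the spread between cultures of a line. In bulk RNA, fewer cells expressing a gene and less of its RNA per cell cannot be told apart.

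Values are log2 intensities, so a difference of 1 is a factor of 2. Levels of different genes are not compared, since probes differ. The highest mean among 23 background probe sets was 7.78, and a mean at or below that value is called within the background range; a gene there is not shown to be silent. Nck1 fell by 0.51 in knockout (limma adjusted p = 0.00391, Benjamini-Hochberg over all genes), and Nck2, within the background range in both lines, differed by -0.24 (adjusted p = 0.0941). Whether these probes lie in the deleted parts is not known here, so they check the labels only in part. Xist, an X-linked RNA, was at 12.13, 12.21 and 12.21 in wildtype and 6.06, 5.95 and 6.01 in knockout. It thus fell by 6.18, to within the background range. None of the 38 genes lies on a sex chromosome, but whether this difference between the lines bears on them was not tested. Of 9 podocyte markers measured, 1 rose, 8 did not pass and 5 had both means in the background range. Over all genes tested, 5.05% were called higher. Actn4, an actin crosslinker, rose by 0.61 (adjusted p = 0.00035), Podxl and Cd2ap differed by 0.09 and 0.08, and Synpo, an actin-associated protein, was at 8.73 ± 0.03 (SD, n = 3, as for all such values) in wildtype and 8.75 ± 0.03 in knockout. The means of the defining markers Nphs1 and Wt1 did not exceed 7.78 in either line. Of all genes tested, 3669 passed (limma adjusted p under 0.05), and leaving out 1 array gave 2079 (without wildtype replicate 3) to 3388.

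The promoters of several of these genes carry the elements named above, and 8 are shown, 6 from genes that changed in either direction and 2, Ifit1 and Isg15, from type I targets that did not pass. They are RefSeq windows of build GRCm38.p6 cut to the bases before the transcription start, written 5′ to 3′ on the gene's own strand. Capitals mark matches to the response element core, 2 copies of GAAA with 2 bases of any kind between them, on either strand (2 copies of TTTC on the other), or, for Irf1, to the gamma-activated site TTCNNNGAA, which reads the same on both strands. The stretches are chr19:34583353-34583436 (plus strand) for Ifit3, chr19:34640765-34640833 (plus) for Ifit1, chr4:156200855-156200916 (minus) for Isg15, chr8:71537567-71537622 (minus) for Bst2, chr3:142620584-142620633 (plus) for Gbp2, chr3:142559979-142560034 (plus) for Gbp3, chr11:48871421-48871470 (minus) for Irgm1 and chr11:53769904-53769952 (plus) for Irf1.
Ifit3: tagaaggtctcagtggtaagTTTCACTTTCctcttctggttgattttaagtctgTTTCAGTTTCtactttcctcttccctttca
Ifit1: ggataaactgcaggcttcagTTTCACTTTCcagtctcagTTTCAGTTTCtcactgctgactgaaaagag
Isg15: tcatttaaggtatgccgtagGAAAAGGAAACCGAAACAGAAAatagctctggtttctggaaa
Bst2: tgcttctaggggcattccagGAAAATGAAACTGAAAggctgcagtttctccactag
Gbp2: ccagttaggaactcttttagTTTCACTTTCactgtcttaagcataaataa
Gbp3: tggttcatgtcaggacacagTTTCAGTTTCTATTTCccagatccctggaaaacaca
Irgm1: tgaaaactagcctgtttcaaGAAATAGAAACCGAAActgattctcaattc
Irf1: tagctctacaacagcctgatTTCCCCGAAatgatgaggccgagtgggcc

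In these stretches the response element core occurred once in Gbp2, 2 times in Ifit3, Ifit1, Bst2, Gbp3 and Irgm1, and 3 times in Isg15, with overlapping matches where the repeats run together. Over the windows of 250 bases before to 50 after each start, 32 of the 38 genes had at least 1 window, and the core was found in 14 of them (43.8%), against 3.99% of all 27025 genes with a window. It was found in 8 of 16 type I targets, 5 of 9 type II targets, 1 of 3 transducers (Stat2) and 0 of 4 receptor chains. The gamma-activated site was found in 9 of 32 (28.1%), against 9.55% of all genes. Genes with the core were found among those that rose (2 of 3 with a window), those that fell (3 of 5) and those that did not pass (9 of 24). A match is a description of letters and not a binding site.

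Of the 38 interferon genes, 9 passed, 3 higher and 6 lower in knockout, where 5.05% of all genes tested were called higher and 6.9% lower. The genes that fell were Ifit3, Gbp2, Iigp1, Gbp3, Ifnar1 and Irf1, and those that rose were Bst2, Irgm1 and Irf9. The changes ran from a log2 fold change of -1.57 in Ifit3 to 1.77 in Bst2, and the median over the 38 genes was -0.02, against 0.01 over all genes. Values of the lines did not overlap for 6 genes higher and 10 lower in knockout, where 12.6% and 14.8% of all genes did so. Bright genes were called more often than dim ones across the array. Among genes with both means above the background range, 21.9% passed in either direction, and of the 22 interferon genes there 6 passed.
Without single arrays the count of lower genes ran from 5 to 7 and that of higher genes from 1, without knockout replicate 2, to 3.

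**Figure D1:**
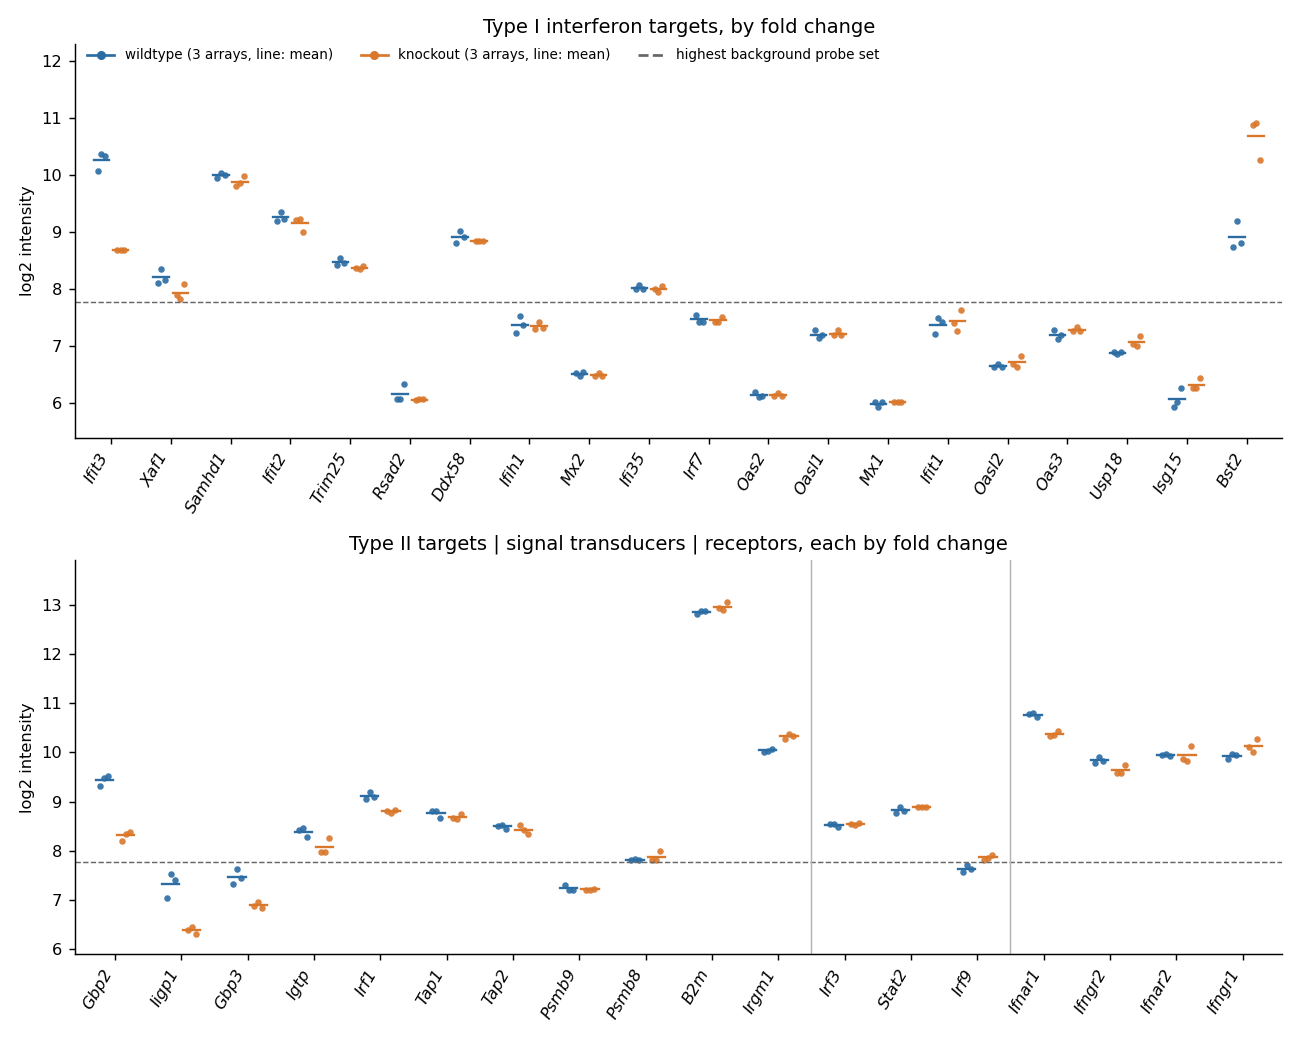
Log2 intensity of each interferon gene on every array (points; wildtype blue, knockout orange; short lines are means of 3 arrays), with type I targets in the upper panel and type II targets, signal transducers and receptors in the lower. The dashed line marks 7.78, the highest mean of a background probe set. Ifit3, Gbp2 and Bst2 have the widest separation of the lines. The means of 12 of 20 type I targets lie below the dashed line in both lines, as do those of 61.3% of all genes tested.

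Most type I targets were dim in both lines and did not pass. Of the 20, 1 rose, 1 fell and 18 did not pass, a share of 10% against 12% of all genes in either direction, and their median log2 fold change was -0.02, with a mean of 0.003. Both means lay within the background range for 12 of the 20, or 60%, against 61.3% of all genes tested. None of those 12 passed, where 3.78% of all such genes did.

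Bst2 encodes tetherin, a membrane protein that holds budding virions at the cell surface. Its values were 8.75, 9.20 and 8.81 in wildtype and 10.88, 10.92 and 10.27 in knockout (probe set TC0800002431.mm.1, chromosome 8). Every knockout array was above every wildtype array, with knockout replicate 3 the lowest of its line. The gene rose 3.42-fold, or by 1.77 on the log2 scale (SE 0.20, limma adjusted p = 0.00269), and the difference ran from 1.66 to 1.98 when single arrays were left out.

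Ifit3 encodes a tetratricopeptide protein of the antiviral response. It was at 10.08, 10.37 and 10.33 in wildtype and at 8.69 on each of the knockout arrays (probe set TC1900000501.mm.1, chromosome 19). The lines did not overlap. Ifit3 was 2.96-fold lower in knockout, a difference of -1.57 (SE 0.08, limma adjusted p = 0.000125). The knockout values were identical after the authors' processing, so the spread of that group is understated.

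The other Ifit genes divided. Ifit1, which binds viral RNA caps, was at 7.22, 7.49 and 7.42 in wildtype and 7.41, 7.28 and 7.63 in knockout, a log2 difference of 0.06 (95% confidence interval -0.21 to 0.33). Ifit2, which lies on the other side of Ifit3 on chromosome 19, was at 9.20, 9.35 and 9.23 in wildtype and 9.22, 9.24 and 9.01 in knockout, a difference of -0.10 (-0.29 to 0.09). Both genes overlapped between the lines and did not pass (limma adjusted p = 0.858 and 0.567), and the means of Ifit1 were within the background range. Another 3 paralogs, from the list of other type I targets described below, fell: the close Ifit3 copy Ifit3b from 9.20 ± 0.07 to 7.25 ± 0.04 (log2 fold change -1.95), Ifit1bl1 from 6.37 ± 0.17 to 5.32 ± 0.04 (-1.05) and Ifit1bl2 from 6.23 ± 0.12 to 5.50 ± 0.10 (-0.73), with limma adjusted p from 1.33e-05 to 0.00261. The last pair had means within the background range throughout. Ifit3 and Ifit3b are near-identical and can share probes, so their values are not independent of each other.

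The classical effector genes of the type I response had means within the background range and were close to level between the lines. Isg15, the ubiquitin-like modifier, was at 5.94, 6.03 and 6.27 in wildtype and 6.27, 6.27 and 6.45 in knockout. These values overlapped at their edge and the difference of 0.25 did not pass (95% confidence interval 0.01 to 0.49, limma adjusted p = 0.197). Usp18, which removes Isg15 and damps receptor signalling, was at 6.89, 6.87 and 6.91 in wildtype and 7.04, 7.01 and 7.19 in knockout. The lines did not overlap, but the difference of 0.19 did not pass (adjusted p = 0.105). The 2 Mx dynamin-like GTPase genes, the Oas2, Oas3, Oasl1 and Oasl2 genes of the oligoadenylate synthetase family, Rsad2, which encodes viperin, and Irf7, the amplifying transcription factor of the response, differed by -0.09 to 0.09. For these 8 genes the confidence intervals lay between -0.29 and 0.23, and all their means were within the background range.

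The RNA sensors also did not pass, nor did the type I targets above the background range other than Bst2 and Ifit3. Ifih1 and Ddx58, the cytosolic detectors of viral RNA, differed by -0.03 (95% confidence interval -0.23 to 0.18) and -0.08 (-0.22 to 0.07), the former within the background range. Samhd1, which depletes deoxynucleotides, was at 9.94, 10.04 and 10.00 in wildtype and 9.80, 9.87 and 9.99 in knockout, a difference of -0.11 (-0.26 to 0.04). Trim25, the ubiquitin ligase that activates Ddx58, differed by -0.10 and Xaf1, a pro-apoptotic factor, by -0.27. In both, the lines did not overlap and the difference did not pass (limma adjusted p = 0.325 and 0.145). Ifi35 differed by -0.02 (95% confidence interval -0.14 to 0.10).

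**Figure D2:**
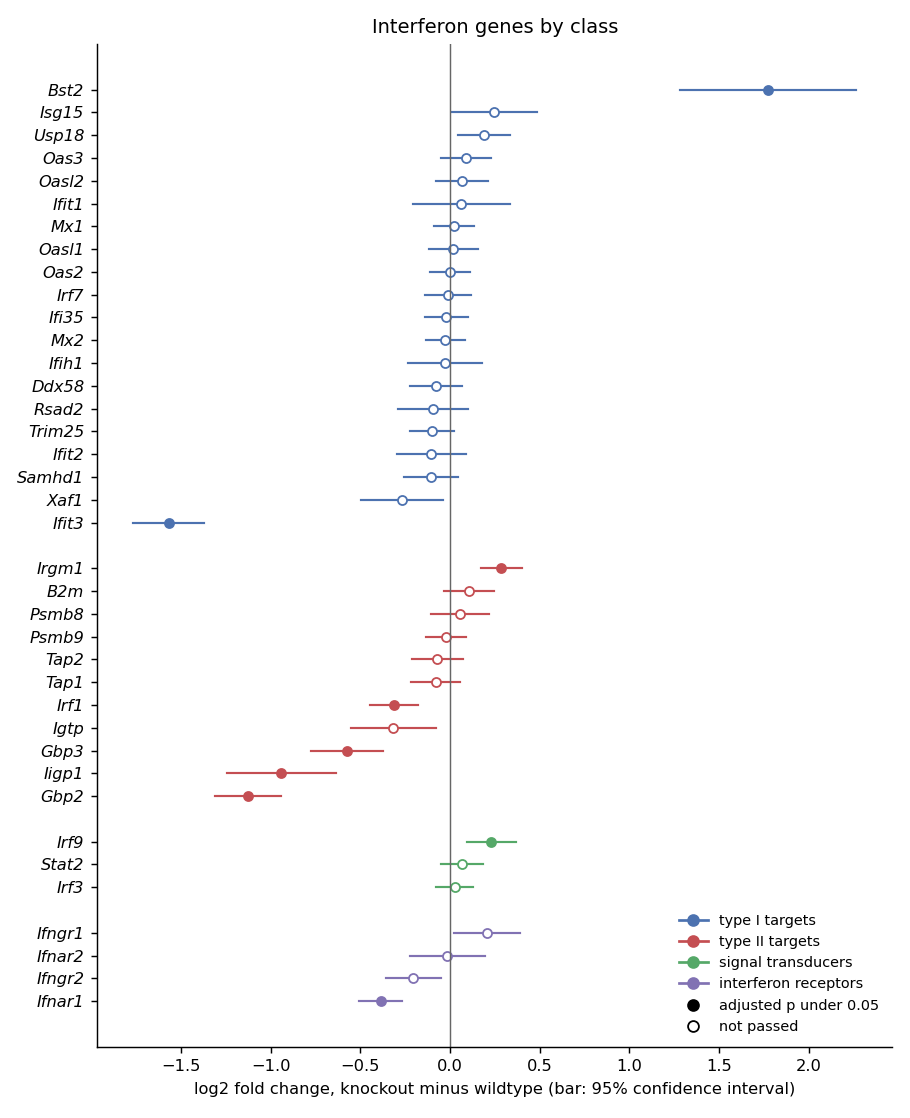
Log2 fold change of each of the 38 interferon genes, knockout minus wildtype, with its 95% confidence interval from limma, grouped and coloured by class. Filled points passed at an adjusted p under 0.05; in the type I class these are Bst2 (1.77) and Ifit3 (-1.57), and in the type II class Gbp2, Iigp1, Gbp3 and Irf1 to the left of 0 and Irgm1 to the right.

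Among the 11 type II targets, 4 fell, 1 rose and 6 did not pass, a share of 45.5% against 12% of all genes. The 5 calls comprised 3 of 8 genes with both means above the background range, where 21.9% of all such genes passed, and 2 of 3 genes within it, where 3.78% did. The median log2 fold change was -0.08, against -0.02 for type I targets and 0.01 for all genes. On each array, the median deviation of the type II targets from their means over arrays was 0.08, 0.09 and -0.01 in wildtype and -0.06, -0.07 and -0.001 in knockout. Wildtype replicate 3 thus lay in the range of knockout by this measure. The same medians for type I targets ran from -0.02 to 0.02 over the 6 arrays. The difference between the classes was not tested.

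The changes in the type II class were in its GTPases and in Irf1. Gbp2, a guanylate-binding protein that attacks the vacuoles of intracellular pathogens, was at 9.32, 9.48 and 9.52 in wildtype and 8.20, 8.34 and 8.39 in knockout (probe set TC0300001447.mm.1, chromosome 3). The lines did not overlap, and Gbp2 was 2.18-fold lower in knockout, by -1.13 on the log2 scale (SE 0.08, limma adjusted p = 0.000341). Gbp3, its neighbour, was at 7.32, 7.62 and 7.45 in wildtype and 6.88, 6.95 and 6.84 in knockout, a fall of 0.57 (SE 0.08, adjusted p = 0.00657). Both lines were within the background range for Gbp3.

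Iigp1 and Igtp encode immunity-related GTPases, and Irgm1 a regulator of that family. Iigp1 was at 7.05, 7.53 and 7.40 in wildtype and 6.40, 6.46 and 6.31 in knockout. All of these values were within the background range and did not overlap, and the mean fell by 0.94 (SE 0.13, limma adjusted p = 0.00471). Igtp was at 8.42, 8.46 and 8.27 in wildtype and 7.97, 7.97 and 8.27 in knockout. Its difference of -0.32 did not pass (adjusted p = 0.102) but passed without knockout replicate 3, the array level with wildtype (adjusted p = 0.03). Irgm1 moved the other way, from 10.01, 10.04 and 10.06 to 10.27, 10.37 and 10.34, a rise of 0.29 (SE 0.05, adjusted p = 0.0105) that did not pass without knockout replicate 2 (adjusted p = 0.0518).

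Irf1, the transcription factor that interferon gamma induces first, fell by a small amount. Its values were 9.04, 9.20 and 9.10 in wildtype and 8.80, 8.76 and 8.84 in knockout, which did not overlap. Irf1 thus fell by 0.31 (SE 0.06, limma adjusted p = 0.0148). The array held 2 probe sets for Irf1, and these values are from the brighter. Its log2 fold change ran from -0.35 to -0.20 over the alternatives, and the call was kept with the mean of both probe sets. The call was lost without wildtype replicate 3, knockout replicate 1 or knockout replicate 2, with adjusted p up to 0.0688, and with arrays centred on their medians.

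The antigen presentation genes of the class did not pass. B2m, the light chain of MHC class I, was at 12.80, 12.88 and 12.88 in wildtype and 12.93, 12.90 and 13.05 in knockout, a log2 difference of 0.11 (95% confidence interval -0.03 to 0.25). The peptide transporter genes Tap1 and Tap2 differed by -0.08 (-0.22 to 0.06) and -0.07 (-0.21 to 0.07). The immunoproteasome subunit genes Psmb8 and Psmb9 differed by 0.06 (-0.11 to 0.22) and -0.02 (-0.13 to 0.09), and Psmb9 was within the background range. Tap1, Tap2, Psmb8 and Psmb9 lie together in the MHC region of chromosome 17, where Tap1 and Psmb9 are transcribed in opposite directions from windows that overlap.

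Of the receptor chains, Ifnar1 fell. It was at 10.77, 10.80 and 10.71 in wildtype and 10.34, 10.35 and 10.43 in knockout, without overlap, which is 1.31-fold lower or a difference of -0.38 (SE 0.05, limma adjusted p = 0.00414). Its partner Ifnar2 was at 9.95, 9.98 and 9.93 in wildtype and 9.86, 9.83 and 10.13 in knockout, a difference of -0.02 (95% confidence interval -0.23 to 0.19). The interferon gamma receptor chains stood on opposite sides of 0 without passing. Ifngr1, the ligand-binding chain, differed by 0.21 (0.02 to 0.39, adjusted p = 0.164), and Ifngr2, the accessory chain, by -0.20 (-0.36 to -0.05, adjusted p = 0.107). For both, the values of the lines did not overlap, and Ifngr2 passed where the arrays were quantile normalized again (adjusted p = 0.0456). Ifnar1, Ifnar2 and Ifngr2 lie on chromosome 16 together with the Mx genes.

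Of the transducers, Irf9, the DNA-binding part of the type I complex, was at 7.56, 7.72 and 7.62 in wildtype, within the background range by its mean, and at 7.82, 7.86 and 7.91 in knockout. The lines did not overlap, and the log2 fold change of 0.23 (SE 0.06) passed at the edge of the threshold (limma adjusted p = 0.0498). The call was lost without any single array other than wildtype replicate 2, with adjusted p up to 0.177. Its partner Stat2 was at 8.82 ± 0.06 and 8.89 ± 0.01, and Irf3, the factor that sensors activate to induce type I interferon, at 8.52 ± 0.03 and 8.55 ± 0.02. Neither passed (adjusted p = 0.526 and 0.853).

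Arrays of a line differed among themselves in these genes. Wildtype replicate 2 held the highest wildtype value for 24 of the 38 genes and wildtype replicate 1 the lowest for 20, and knockout replicate 3 held the highest knockout value for 23. Over all genes the order of the wildtype pair was the opposite, with median deviations of 0.04 for replicate 1 and -0.04 for replicate 2. Of the 9 calls, those of Ifit3, Bst2, Gbp2, Gbp3, Iigp1 and Ifnar1 were kept whichever array was left out.

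The rest of the pathway was described from lists of related genes. Interferon genes themselves were not called: of 18 measured ligand genes none passed (limma adjusted p from 0.585 to 0.993, and 0 at an unadjusted p under 0.05), and 16 had both means within the background range. Ifnb1, the first type I interferon made by most cells, was at 5.41 ± 0.11 and 5.42 ± 0.05, and Ifng at 5.70 ± 0.17 and 5.69 ± 0.07.

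Among 13 other JAK, STAT and IRF genes there were 2 that rose and none that fell, where 12% of all genes, and 21.9% of those above the background range, were called in either direction. The receptor kinase gene Jak1 rose from 10.00 ± 0.04 to 10.30 ± 0.03 (log2 fold change 0.30, limma adjusted p = 0.00812) and Stat6, which serves the interleukin-4 receptor, from 8.59 ± 0.05 to 9.50 ± 0.08 (0.91, adjusted p = 0.00028). The other receptor kinase genes Jak2 and Tyk2 differed by 0.17 and -0.05 (adjusted p = 0.405 and 0.7). Among 13 negative regulators, 5 fell and none rose, against 6.9% of all genes called lower and 12.7% of those above the background range, where 11 of the 13 lay. The median was -0.07, and 3 to 4 fell with single arrays left out. Cish, a suppressor of cytokine signalling, fell from 8.80 ± 0.15 to 7.82 ± 0.02, the protease gene Usp25 from 10.88 ± 0.09 to 10.33 ± 0.08 and the STAT inhibitor gene Pias2 from 10.23 ± 0.06 to 9.72 ± 0.08 (adjusted p from 0.000695 to 0.00382). The phosphatase gene Ptpn2 (-0.45) and Pias4 (-0.26) also fell, but each lost its call without at least 4 of the 6 arrays in turn, with adjusted p up to 0.0818 and 0.11. Socs1 and Socs3, the suppressors that interferon induces, differed by -0.14 and 0.04 and did not pass (adjusted p = 0.313 and 0.808).

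Nucleic acid sensing was represented by 14 genes, of which 2 rose and 1 fell, where 5.05% of all genes were called higher and 6.9% lower; 9 lay within the background range in both lines. Sting1, the adaptor of cytosolic DNA sensing, rose by 0.76 from 7.44 ± 0.15 (limma adjusted p = 0.0223), Cgas, the sensor upstream of it, by 0.63 from 5.88 ± 0.23 (adjusted p = 0.0163), and the kinase gene Ikbke fell by 0.24 from 7.56 ± 0.05 (adjusted p = 0.02). None of these 3 calls was kept in every fit with 1 array left out: Sting1 lost its call without any wildtype replicate or knockout replicate 1, and Cgas and Ikbke without wildtype replicate 3 or any of the knockout arrays, with adjusted p up to 0.0874, 0.0713 and 0.0878.

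Among 48 other type I targets, calls were split evenly, with 7 higher, 7 lower, where 5.05% of all genes were called higher and 6.9% lower, and a median of -0.02, and 8 of the 14 calls were kept whichever array was left out. Beside the Ifit paralogs, those that fell included Tor3a (-0.45, limma adjusted p = 0.00405), an ATPase of the endoplasmic reticulum, and Parp12 (-0.44, adjusted p = 0.0152), an antiviral mono-ADP-ribosyltransferase whose call was lost without wildtype replicate 2 or 3 or knockout replicate 1 or 2 (adjusted p up to 0.0753). Those that rose were led by Ifitm3, which blocks entry of enveloped viruses, at 9.21, 9.15 and 9.02 in wildtype and 10.52, 10.51 and 11.11 in knockout. Its lines did not overlap, and it rose by 1.59 (SE 0.17, adjusted p = 0.00202). Lgals9, a galectin, rose from 9.33 ± 0.06 to 10.40 ± 0.15 (1.07, adjusted p = 0.000653) and Ifi204, of the DNA-binding Ifi200 family, from 8.83 ± 0.18 to 9.71 ± 0.04 (0.88, adjusted p = 0.00185). Ifitm2, a close paralog that can share probes with Ifitm3, rose by 0.66 (adjusted p = 0.0187), and Rtp4 by 0.61 within the background range (adjusted p = 0.0433). The call of Ifitm2 was lost without any wildtype replicate and that of Rtp4 without any array other than wildtype replicate 2, with adjusted p up to 0.0808 and 0.162.

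Other interferon gamma targets included the rest of the guanylate-binding family. This list of 20 measured genes had 5 that fell, 3 that rose, a median of -0.02 and a mean of 0.11, where 5.05% of all genes were called higher and 6.9% lower. With single arrays left out, 1 to 3 fell and 2 to 3 rose. Cxcl10, a chemokine that draws T cells, was at 7.80, 7.77 and 7.95 in wildtype and 6.54, 6.52 and 6.73 in knockout, a fall of 1.24 (SE 0.08, limma adjusted p = 0.000247) with the knockout mean within the background range. Casp1, the inflammasome protease, had the largest rise in this list, from 4.92, 4.69 and 4.89 in wildtype, all within the background range, to 9.16, 9.28 and 9.65 in knockout. This rise was of 4.53 (SE 0.14, limma adjusted p = 1.55e-05), and its neighbour on chromosome 9, Casp4, rose by 0.50 within the background range (adjusted p = 0.00492). Wars, the tryptophanyl-tRNA synthetase, rose by 0.20 (adjusted p = 0.0419), a call lost without any 1 array (adjusted p up to 0.158).

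Grouped after their values were seen, the 7 guanylate-binding genes with a probe set of their own were all lower in knockout without overlap, and 6 passed, where 14.8% of all genes were lower without overlap and 6.9% were called lower. Beside Gbp2 and Gbp3 on chromosome 3, their neighbour Gbp7 fell by 0.65 (limma adjusted p = 0.0124). On chromosome 5, Gbp8 fell by 0.34, Gbp9 by 0.31 and Gbp4 by 0.28 (adjusted p from 0.0287 to 0.0476), while Gbp11 differed by -0.24 and did not pass (adjusted p = 0.124). The count of 6 was 4 without wildtype replicate 1, 3 without wildtype replicate 2 or knockout replicate 3, and 2 without wildtype replicate 3, knockout replicate 1 or knockout replicate 2. It was 3 with arrays centred on their medians. These genes are similar in sequence and can share probes.

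**Figure D3:**
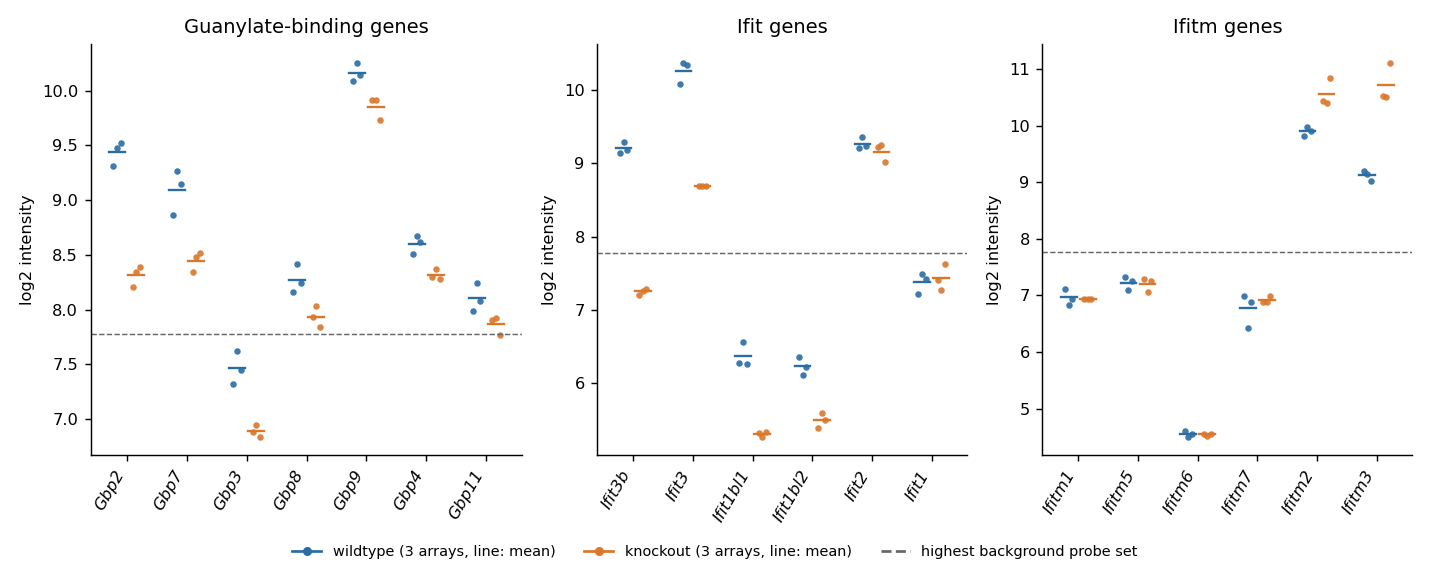
Log2 intensity on each array (points; wildtype blue, knockout orange; lines are means of 3 arrays) for the guanylate-binding, Ifit and Ifitm genes with a probe set of their own, ordered by fold change within each panel. The dashed line marks the highest background probe set (7.78). All 7 guanylate-binding genes are lower in knockout, Ifit3 and Ifit3b separate while Ifit1 and Ifit2 overlap, and Ifitm2 and Ifitm3 are higher in knockout.

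Calls among MHC class I genes outside the 38 were all lower in knockout. Of 17 measured genes, 6 fell and none rose, where 6.9% of all genes, and 12.7% of those with both means above the background range, were called lower. The median was -0.14, and the values of 2 genes that did not pass lay higher in knockout without overlap, Psme1 (0.23) and Calr (0.03). Erap1, the peptidase that trims peptides for class I, was at 9.70, 9.92 and 9.75 in wildtype and 8.86, 8.91 and 8.73 in knockout, a fall of 0.96 (SE 0.08, limma adjusted p = 0.00068). The peptide-loading genes Tapbp, encoding tapasin, and Tapbpl fell by 0.56 and 0.45, the nonclassical heavy chain gene H2-M3 by 0.71 and the classical heavy chain gene H2-K1 by 0.40 (adjusted p from 0.00176 to 0.00307). H2-D1 fell by 0.21 (adjusted p = 0.0401), a call lost without any 1 array (adjusted p up to 0.137). Heavy chain genes are polymorphic and similar to each other, so their probes may not read all alleles alike, and strain of the lines is not given. Beside these falls B2m, Tap1, Tap2, Psmb8 and Psmb9 did not pass.

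Of 11 MHC class II genes, H2-DMb1 (-0.80, limma adjusted p = 0.000163) and its copy H2-DMb2 (-0.29, adjusted p = 0.0235) fell and 9 did not pass, where 6.9% of all genes were called lower. Both means lay within the background range for 10 of the 11. Of those 10, 1 was called, H2-DMb2, where 3.78% of all such genes were. The wildtype mean of H2-DMb1 was 7.91, above that range. The call of H2-DMb2 was lost when wildtype replicate 3 or any of the knockout arrays was left out (adjusted p up to 0.0909). Its knockout values were identical on the 3 arrays, so the spread of that group is understated. Of 13 proteasome subunits that are made without interferon, Psma7 fell (-0.40, adjusted p = 0.00227; 6.9% of all genes were called lower) and 12 did not pass, among them Psmb6 and Psmb7 (-0.13 and -0.09), whose places in the particle the immunoproteasome subunits can take.

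**Figure D4:**
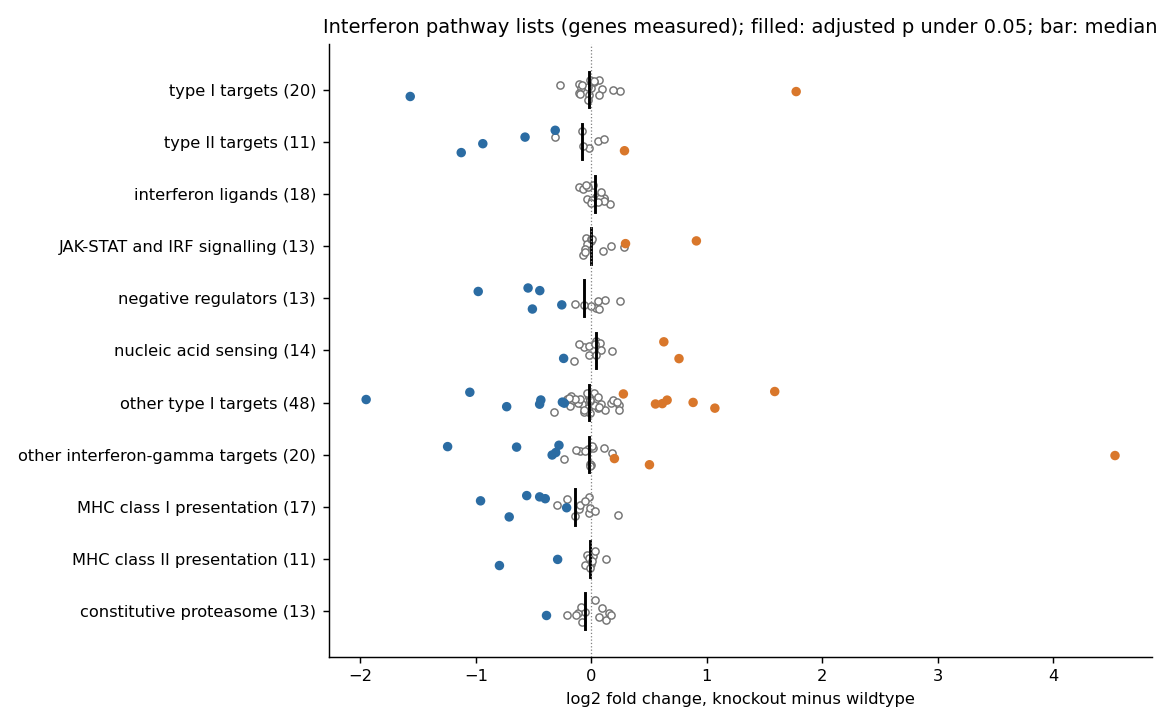
Log2 fold change of each measured gene, knockout minus wildtype, in the type I and type II targets and the 9 pathway lists, with the number of genes measured in brackets. Filled points passed (orange higher, blue lower in knockout), open points did not, and black bars are medians. The ligand genes cluster at 0, calls among MHC class I genes are all lower, and the point at 4.53 is Casp1.

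Leukocyte markers were taken as a check of other cells that respond to interferon. Beside each marker list here stand the shares of all genes called, 5.05% higher and 6.9% lower. Among genes with both means above the background range these shares were 9.15% and 12.7%. Ptprc, the pan-leukocyte marker CD45, was within the background range at 5.01 ± 0.06 in wildtype and differed by -0.01 in knockout. Of 14 measured markers, Cd68 rose (0.57, limma adjusted p = 0.0471), Csf1r and Cd14 fell (-1.21 and -0.73, adjusted p = 0.000319 and 0.00517) and 11 did not pass, and each of those 11 was within the background range throughout. The mean log2 level of the list ran from 6.82 to 7.03 over wildtype arrays and from 6.82 to 6.89 over knockout arrays; its part in the results above was not tested. All 8 endothelial markers were within the background range and did not pass. Of 10 tubular markers 5 fell, 4 of them with both means above the background range, led by the water channel gene Aqp1 (-3.50, limma adjusted p = 2.98e-06). In wildtype Aqp1 was at 12.92, Lrp2 at 11.76, Cdh16 at 11.60 and Pax8 at 11.42. Both means lay within the background range for 5 of the 10. The mean level of the list ran from 8.85 to 8.97 over wildtype arrays and from 8.22 to 8.29 over knockout arrays. Of 6 mesangial and pericyte markers, Acta2 and Pdgfrb rose (2.83 and 2.36, limma adjusted p = 2.38e-05 and 2.66e-05). The other 4 did not pass, had both means within the background range and differed by -0.02 to 0.13. The list mean ran from 7.27 to 7.41 in wildtype and from 8.21 to 8.27 in knockout, while the median log2 fold change of the list was 0.08. The part of these lists in the differences of the interferon genes was not tested either.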

How the data were processed

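Total RNA from 3 wildtype and 3 knockout cultures was measured on Affymetrix arrays. The authors deposited 1 log2 intensity per probe set and array, made with affy 1.44.0 and RMA (background correction, quantile normalization, median polish), per the submitters' processing notes; the probe definition file is not given in the sources used here. Of 72688 probe sets, 31258 named 1 gene in the platform annotation and 1492 several. Symbols were updated through a reference table of assembly GRCm38.p6 (1135 changed; 30700 of 30702 genes found).

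Each gene was tested for a difference between the lines (limma 3.58.1 on R 4.3.3; lmFit, eBayes, two-sided, no covariate or filter), with Benjamini-Hochberg adjustment over 30702 genes at 0.05. Errors are SDs of 3 arrays or limma standard errors. In simulated arrays of these 30702 genes, 52.2% of 67 genes changed by 0.5, 91.0% of 67 changed by 1 and 98.5% of 66 changed by 2 on the log2 scale were recovered, with 2 false calls. The simulated noise was normal and independent between genes, and far fewer genes changed than the 3669 that passed in the data. The rates may therefore differ in the data. Precision is limited by the number of arrays.

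The genes and lists were chosen with earlier results of these data known. All 38 measured genes are named, and of each pathway list up to 5 passing genes in each direction with the largest change, plus Jak1, Jak2, Tyk2, Socs1, Socs3, Psmb6, Psmb7, H2-K1, H2-D1 and Ifnb1. Ifng, Gbp11, Psme1, Calr, Xist and the markers Actn4, Podxl, Cd2ap, Cd14, Cd68, Csf1r, Aqp1, Acta2 and Pdgfrb were added after their values were seen. Alternatives left out each array, blocked on replicate number, rescaled the arrays, and changed the filter, probe set choice, prior and threshold; applying them to the pathway lists was decided after the data were seen. Plots used matplotlib 3.10.9 (Python 3.11.15).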

Additional observations from a re-analysis of the deposited data

How the results depend on the processing

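Over the alternatives, the counts of interferon genes called ran from 5 to 7 lower and from 1 to 3 higher with 1 array left out, and at a threshold of 0.01 the count of higher genes was 1 and that of all genes 1948. With 1 array left out, all genes called ran from 2079 to 3388, the type I median from -0.02 to -0.004 and the type II median from -0.12 to -0.05; these fits hold fewer samples. Leaving out dim genes or genes with identical values in a group removed members from the test, Ifit3 among the latter. No called interferon gene changed sign. The replicate numbers were not taken as pairs. Correlations of same-numbered arrays were 0.35, 0.28 and 0.04, and those of differently numbered arrays ran from -0.34 to 0.05. Knockout replicate 3 correlated best with wildtype replicate 2, by 0.05 against 0.04 with wildtype replicate 3. Whether same-numbered cultures were handled together is not known here. With the replicate block 2 interferon genes were higher, 6 lower and 3765 genes passed in all. Means within the background range limit what can be said of most type I targets.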
